A study of Mus musculus with 10 samples.

Results

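The genes described here are interferon response genes, transcripts that cells switch on when interferons bind their receptors. Of 38 genes listed for this set, 36 were measured by a probe set that names a single gene, out of 18193 genes measured in all. Isg15 is named only by a probe set that names several genes, and Ifi44 was not analysed here. The list was given by gene name, and where a gene has several probe sets the one with the greatest average level was taken. The 10 arrays hold total RNA of lower-incisor dental mesenchyme from 5 wild-type C57BL/6J mice at postnatal day 60, with sex not determined. On 1 side of each animal the inferior alveolar nerve, which carries sensation from the mandible and its teeth, was resected 2 weeks earlier. Denervated stands for the 5 arrays of this side, and contralateral for the 5 of the intact side of the same mice. All animals were operated and no sham-operated incisor is among the samples, so effects of the lost nerve and of the surgery cannot be told apart.

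Interferons are secreted proteins that warn cells of infection or damage. Type I interferons bind the receptor of IFNAR1 and IFNAR2, which activates the kinases JAK1 and TYK2 and leads to a complex that includes STAT2 and IRF9 on interferon-stimulated response elements. Interferon gamma, the type II interferon of lymphocytes, acts through IFNGR1 and IFNGR2 and on genes with gamma-activated sequences, and IRF1, itself induced, carries the response further. The induced proteins degrade or sequester viral RNA, mark the vacuoles of intracellular microbes and increase peptide presentation. Resident macrophages express many of these genes at low levels without infection, and fibroblasts and endothelial cells express them when stimulated.

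Stretches of the promoters of 10 members are shown because 17 of 27 members with a promoter entry carry short sequence elements of the interferon response. Interferons act through these elements, so their presence in a list of interferon response genes is not an independent result. The genes shown include members of the transcription factors, effectors and GTPases described below. They were picked without a fixed rule, but only promoters with an element before the start could be shown. The 10 therefore do not stand for the whole set. All 10 are among the 31 of 36 members with a higher denervated mean. Each stretch has 80 bases upstream of the transcription start, 5′ to 3′ in the direction of the gene, from RefSeq on build GRCm38.p6. Capitals mark the core of the interferon-stimulated response element, searched as GAAA followed after any 2 bases by a further GAAA (TTTC, any 2 bases and TTTC when it lies on the other strand), and the gamma-activated sequence, searched as TTCNNNGAA.
Gbp2: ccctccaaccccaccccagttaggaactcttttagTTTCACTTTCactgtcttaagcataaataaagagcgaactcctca
Gbp3: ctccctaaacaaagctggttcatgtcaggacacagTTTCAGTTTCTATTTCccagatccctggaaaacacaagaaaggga
Gbp7: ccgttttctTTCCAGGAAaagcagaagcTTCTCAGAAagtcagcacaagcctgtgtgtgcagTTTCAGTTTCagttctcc
Igtp: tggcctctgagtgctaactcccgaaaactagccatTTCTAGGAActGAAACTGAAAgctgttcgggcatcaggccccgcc
Irgm1: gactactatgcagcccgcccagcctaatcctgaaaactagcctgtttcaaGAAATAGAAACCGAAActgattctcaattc
Irf1: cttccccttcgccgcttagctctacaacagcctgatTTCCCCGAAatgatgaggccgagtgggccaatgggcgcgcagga
Trim30a: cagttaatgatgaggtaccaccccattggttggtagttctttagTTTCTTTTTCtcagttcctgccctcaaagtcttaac
Oas1a: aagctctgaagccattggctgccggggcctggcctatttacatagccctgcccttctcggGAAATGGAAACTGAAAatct
Ifit1: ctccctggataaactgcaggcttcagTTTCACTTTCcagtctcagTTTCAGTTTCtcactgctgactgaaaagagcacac
Ifit3: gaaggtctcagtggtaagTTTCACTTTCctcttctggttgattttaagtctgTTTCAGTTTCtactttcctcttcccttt

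On the plus strand the Gbp2 stretch lies at chr3:142620569-142620648, Gbp3 at chr3:142559964-142560043, Gbp7 at chr3:142530221-142530300, Igtp at chr11:58199476-58199555, Irf1 at chr11:53769888-53769967, Ifit1 at chr19:34640759-34640838 and Ifit3 at chr19:34583355-34583434. On the minus strand Irgm1 lies at chr11:48871421-48871500, Trim30a at chr7:104465194-104465273 and Oas1a at chr5:120907526-120907605. The promoter table, which covers 250 bases before and 50 bases after the start, has an entry for 27 of the 36 measured members. Dhx58, Zbp1, Oas2, Mx1, Mx2, Usp18, Iigp1, Parp9 and Parp14 have none. Searched on both strands over these 300 bases, the response element core occurred in a promoter of 13 of the 27 members, or 48.1%, and of 1079 of the 27025 genes in the table, or 3.99%. Stat2 and Rsad2, which are among the 13 but not shown above, had lower denervated means, with differences of -0.13 and -0.10. A link between the elements and the differences was not tested. TTCNNNGAA, which reads the same on both strands, occurred in 8 of 27 members (29.6%) and 9.55% of all genes. Either element was present in 17 of 27 members (63.0%) and in 12.9% of all genes. The guanylate-binding protein genes Gbp2, Gbp3 and Gbp7 and the GTPase genes Igtp and Irgm1 carry the response element core in the stretches shown. Ifit1 and Ifit3 carry 2 copies each, and the Irf1 stretch has the gamma-activated sequence alone. In Gbp3, Irgm1 and Oas1a the 2 copies of the core overlap.

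The values are log2 intensities normalized by the authors, between -0.16 and 13.21, with array medians between 1.48 and 1.54. The number of arrays limits the precision, and the median standard error of a difference was 0.18 over the members and 0.10 over all genes. For 11 of the measured members the mean lay under 2, for 15 it was between 2 and 4, and for 10 at least 4. The bound of 2 was set here without detection calls, and under it signal and background may not be told apart. Among all genes 40.7% had a mean below 2. Markers of the labelled tissue were high, with Msx1 of the dental mesenchyme at 9.55 and the dentin gene Dspp at 12.16, and so were enamel epithelium genes such as Ambn at 12.69. Denervated arrays 2 and 3 stand apart from the others: both were high in smooth muscle, endothelial, macrophage and neutrophil markers, the last most of all in array 3, which was also low in enamel epithelium markers. Differences of the members given by array are therefore repeated in 2 reduced settings, without denervated arrays 2 and 3, which leaves the contralateral incisors of these mice unpaired, and without mice 2 and 3 altogether. In this bulk RNA, more cells of a type and more RNA per cell cannot be told apart.

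In the denervated incisors the mean was higher for 31 of the 36 interferon response genes and lower for 5, but no single gene passed the test. The median difference, denervated minus contralateral, was 0.26 on the log2 scale over the 36 members and 0.02 over all genes, and 55.8% of all genes had a difference above 0. The largest differences belonged to Trim30a, a tripartite motif gene of myeloid and lymphoid cells, at 0.66 ± 0.27 (SE), to the GTPase gene Ifi47 at 0.65 ± 0.21 and to Parp14, an ADP-ribosyltransferase gene, at 0.64 ± 0.24 (n = 5 arrays per group). In limma's test with Benjamini-Hochberg adjustment over 18193 genes 0 of 36 members passed at 0.05, against 0.0% of all genes. The adjusted p of the members lay between 0.790 and 0.968. At an unadjusted p under 0.05 there were 6 members, or 16.7%, all higher, against 4.1% of all genes in this direction, and 0 members in the other, against 2.11%. With the mouse as a block 0 members passed after adjustment as well (limma's smallest adjusted p 0.399). An unadjusted p under 0.05 was reached by 14, all higher, or 38.9% against 6.99% of all genes, and by 0 lower, against 2.93%. Standard errors and intervals of members are from the fit without the block unless stated. With the block the SE fell for some members, such as Irf1 (0.18 to 0.11). It did not fall for others, such as Ifi47 (0.21 in both) and Dtx3l (0.12 to 0.14).

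The pattern followed the level of the probe set. All 25 members with a mean of at least 2 had a higher denervated mean, with differences from 0.14 to 0.66 and a median of 0.36. Among all genes at this level 65.4% had a higher denervated mean, and the median was 0.05. The 11 members below 2 had 6 differences above 0 and 5 below, with a median of 0.04, against -0.02 for all genes below 2. Without denervated arrays 2 and 3 the median over all 36 members was 0.01 with 21 of 36 above 0, and without mice 2 and 3 it was 0.08 with 27 of 36 above 0. For members with a mean of at least 2 it was 0.07 in the first setting, with 18 of 25 above 0 against 53.7% of all genes at this level, and 0.12 in the second, with 23 of 25 above 0 against 49.7% of genes. Without denervated array 3 alone the median over the 36 members was 0.14 with 28 above 0.

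**Figure D1:**
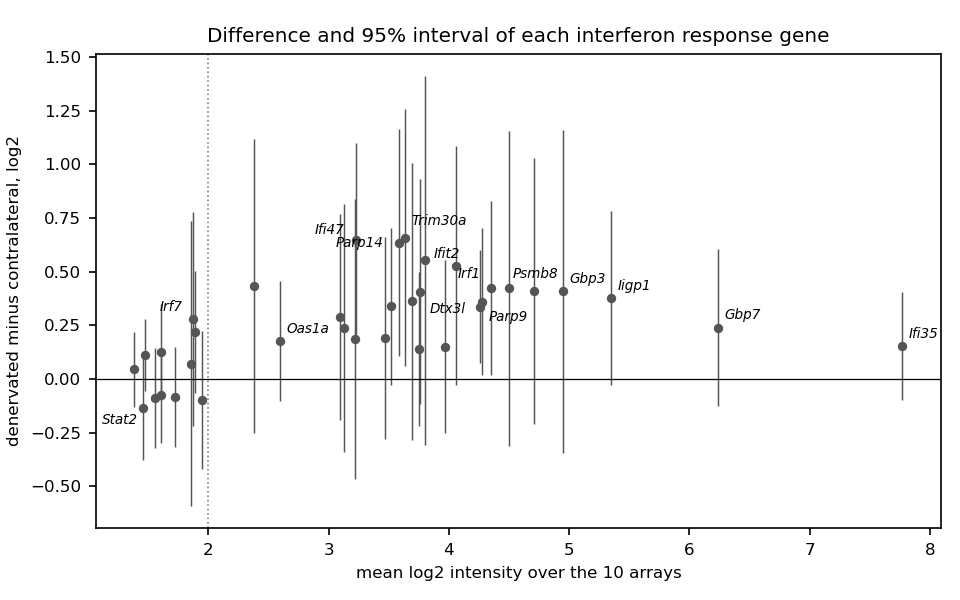
Difference between denervated and contralateral incisors (log2, y axis) against the mean log2 intensity over the 10 arrays (x axis) for the 36 measured interferon response genes, with points for limma's estimate and bars for its 95% interval without the block; the dotted line marks a mean of 2, and the 15 genes with values given for every array are named. All 25 points right of the dotted line lie above 0, and most bars cross 0.

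Averaged over the members after centring each gene on its own mean, the denervated arrays of mice 1 to 5 stood at 0.04, 0.30, 0.62, -0.13 and -0.18 and the contralateral arrays at -0.01, -0.05, -0.06, -0.19 and -0.34. Denervated arrays 2 and 3 lie above all others, while denervated arrays 4 and 5 lie within the contralateral range, so the groups overlap. The group means were 0.13 ± 0.33 and -0.13 ± 0.14 (SD, n = 5), a difference of 0.26. Within mice the denervated value was higher in 5 of 5, by 0.05, 0.35, 0.68, 0.06 and 0.16. Mouse 5 had the lowest mean on both sides and mouse 4 the next lowest on both sides. The difference was 0.04 without denervated arrays 2 and 3 and 0.09 without mice 2 and 3. Since the genes were proposed with earlier results of these data known, no p is given for this mean.

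**Figure D2:**
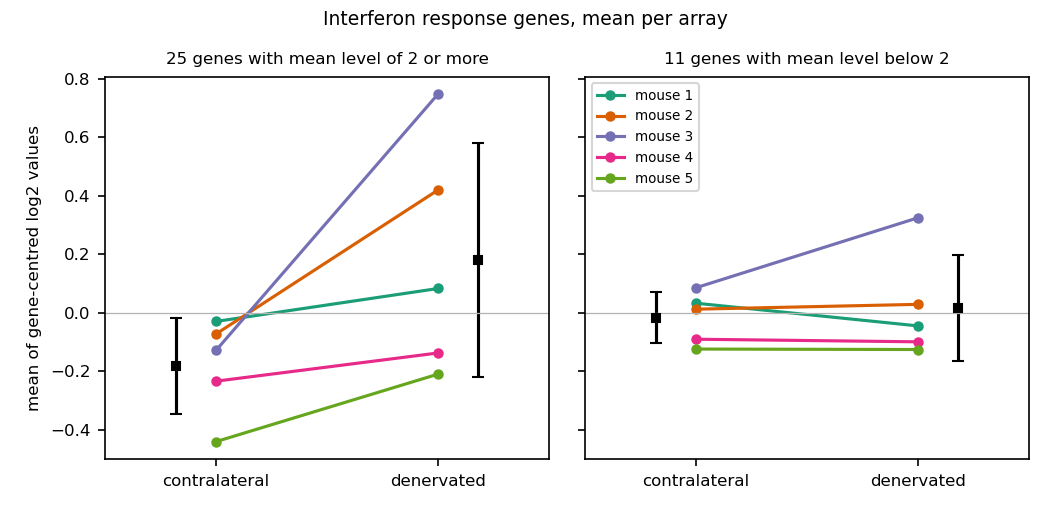
Mean of gene-centred log2 values (y axis) per array for the 25 members with a mean level of at least 2 (left) and the 11 members below 2 (right); each line joins the contralateral and denervated incisor of a mouse, and squares with bars give the group mean and SD (n = 5). On the left the gap in favour of the denervated side is 0.49 in mouse 2, 0.88 in mouse 3 and 0.10 to 0.23 elsewhere; on the right mouse 3 has the widest gap, 0.24.

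Counts over the members varied from mouse to mouse in the same way, but not every member did. Gbp3 had its largest difference in mouse 5, at 0.93, and Ifit1 was at -0.45 in mouse 2. In mouse 3 the denervated incisor was higher for 34 of 36 members, against 60.0% of all genes, with a median difference of 0.70. In mouse 2 it was higher for 29 of 36 (57.6% of all genes), with a median of 0.26. Mouse 5 had 27 of 36 members higher (48.1% of all genes), with a median of 0.09. Mice 1 and 4 had 19 and 18 of 36 members higher (46.1% and 52.4% of all genes), with medians of 0.08 and 0.02. Only 5 of 36 members were higher in every mouse, or 13.9% against 6.58% of all genes, namely Irf1, Irf7, Oas1a, Ifi47 and Trim30a, and 1 member, Stat2, was lower in every mouse, against 3.8%. Among the 25 members with a mean of at least 2, 4 were higher in every mouse, against 9.17% of genes at this level. Denervated array 3 held the highest denervated value of 29 of the 36 members and denervated array 2 that of the other 7. The spread was accordingly wider in the denervated group for 29 of 36 members, or 80.6%, against 57.4% of all genes, with a median SD of 0.43 for denervated and 0.22 for contralateral arrays.

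**Figure D3:**
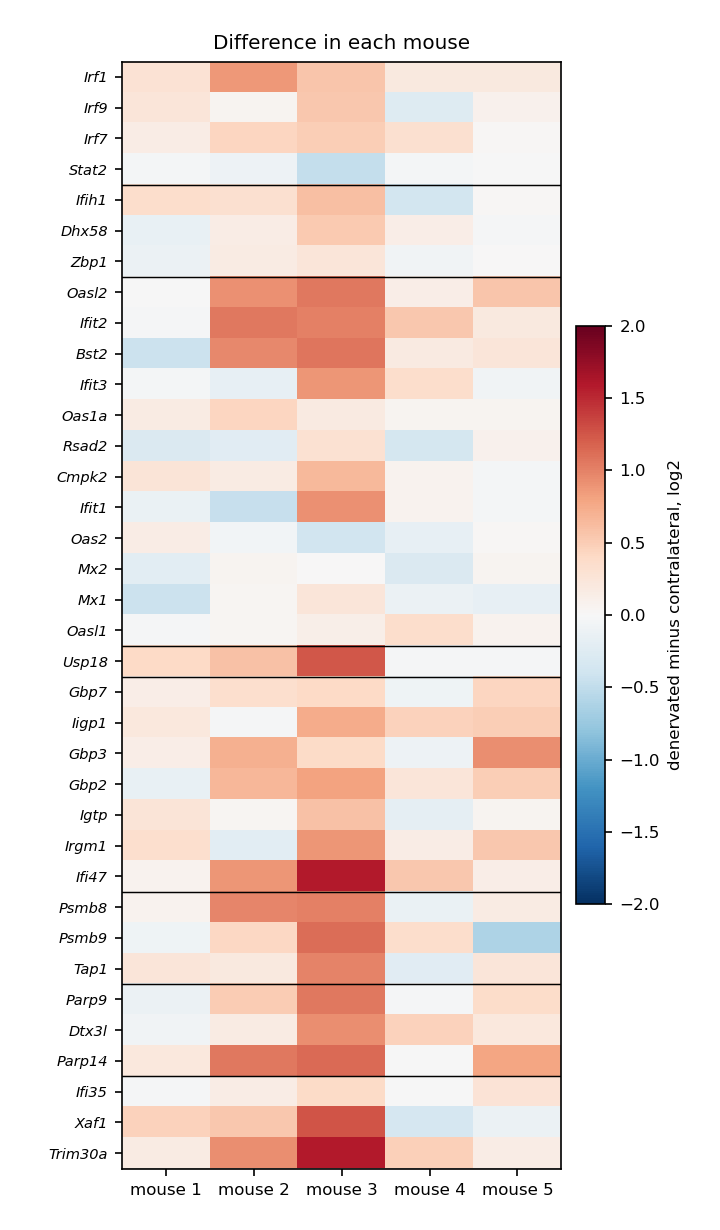
Denervated minus contralateral difference (log2, colour) of each of the 36 members (rows, grouped by role with lines between groups) in each of the 5 mice (columns). Red marks a higher denervated value; the mouse 3 column is red for 34 of 36 genes, and the mouse 1 and mouse 4 columns are mixed.

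Among the transcription factors of the response, Irf1 had the clearest difference. Irf1, which encodes the factor that carries the gamma interferon response, read 4.44, 5.28, 4.62, 4.17 and 4.30 in the denervated incisors of mice 1 to 5 and 4.14, 4.41, 4.07, 3.97 and 4.10 in the contralateral ones. Denervated array 2 is the high value, and the lowest denervated arrays, 4 and 5, lie within the contralateral range. The difference was 0.42 (95% confidence interval 0.02 to 0.83; limma's adjusted p 0.790), higher in 5 of 5 mice; it was 0.16 without denervated arrays 2 and 3 and 0.23 without mice 2 and 3. Irf7, the factor that amplifies type I interferon production, read 1.83, 2.55, 2.50, 1.66 and 1.52 against 1.69, 2.13, 2.01, 1.34 and 1.51. Its values follow the mouse, high on both sides in mice 2 and 3 and low in mice 4 and 5, and the groups overlap. At a mean of 1.87, below the bound of 2, the difference was 0.28 ± 0.23 (SE 0.09 with the mouse as a block), above 0 in 5 of 5 mice. It was 0.16 without mice 2 and 3 and turned to -0.063 only where denervated arrays 2 and 3 were dropped and their contralateral partners, the highest of that group, were kept. Stat2, which encodes a subunit of the type I complex, read 1.41, 1.23, 1.47, 1.42 and 1.44 against 1.45, 1.34, 1.95, 1.45 and 1.44. All these values are low, and contralateral array 3 alone stands out. The difference of -0.13 ± 0.11 was -0.03 without that array, -0.11 without denervated arrays 2 and 3 and -0.03 without mice 2 and 3, and the other Stat2 probe set differed by 0.08. Irf9, which encodes the DNA-binding part of that complex, had 3.82 ± 0.35 against 3.68 ± 0.21 (SD, n = 5).

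Sensors of foreign nucleic acid had small differences. Ifih1, which encodes the sensor of long double-stranded RNA MDA5, had 3.31 ± 0.68 against 3.13 ± 0.35 (SD, n = 5). Its difference of 0.19 ± 0.30 (SE, 0.13 with the mouse as a block) was below 0 in mouse 4. Its regulator Dhx58 and the Z-form nucleic acid sensor gene Zbp1 had means of 1.61 and 1.39 and differed by 0.13 ± 0.10 and 0.04 ± 0.08.

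The antiviral effectors divided by level. Of the 12 genes of this kind, 7 had a mean below 2: Ifit1, Oas2, Oasl1, Mx1, Mx2, Rsad2 and Cmpk2. These include genes that climb most steeply when interferon is given to cells, such as the viperin gene Rsad2, whose values lay between 1.60 and 2.43. Mx1, which inhibits influenza virus and is defective in most laboratory strains, and Mx2 had differences of -0.09 ± 0.11 and -0.08 ± 0.10. Ifit2, which encodes a tetratricopeptide protein that binds viral RNA, read 4.29, 4.86, 4.33, 4.17 and 2.75 in the denervated incisors of mice 1 to 5 and 4.31, 3.81, 3.32, 3.63 and 2.55 in the contralateral ones. Both incisors of mouse 5 are low, the difference is near 0 in mouse 1 and about 1 log2 unit in mice 2 and 3. Its difference was 0.55 ± 0.39 (SE 0.16 with the mouse as a block). It was 0.31 without the contralateral and 0.88 without the denervated array of mouse 5, 0.21 without denervated arrays 2 and 3 and 0.24 without mice 2 and 3. The related Ifit1 and Ifit3 differed by 0.07 ± 0.30 and 0.19 ± 0.21 and were higher in 2 of 5 mice each. Oas1a, an activator of RNA decay by RNase L, read 2.53, 2.78, 3.04, 2.58 and 2.50 against 2.37, 2.35, 2.86, 2.52 and 2.45. The denervated value is higher in every mouse, by 0.05 to 0.42, while mouse 3 is high on both sides. The difference was 0.18 ± 0.13 (SE 0.08 with the mouse as a block), 0.03 without denervated arrays 2 and 3 and 0.09 without mice 2 and 3. Oasl2, of the same family, had 4.32 ± 0.53 against 3.80 ± 0.38 (SD, n = 5). Bst2, which encodes tetherin, the protein that holds budding viruses at the cell surface, had 3.96 ± 0.60 against 3.56 ± 0.16, with differences of 0.97 and 1.07 in mice 2 and 3 and -0.43 in mouse 1.

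**Figure D4:**
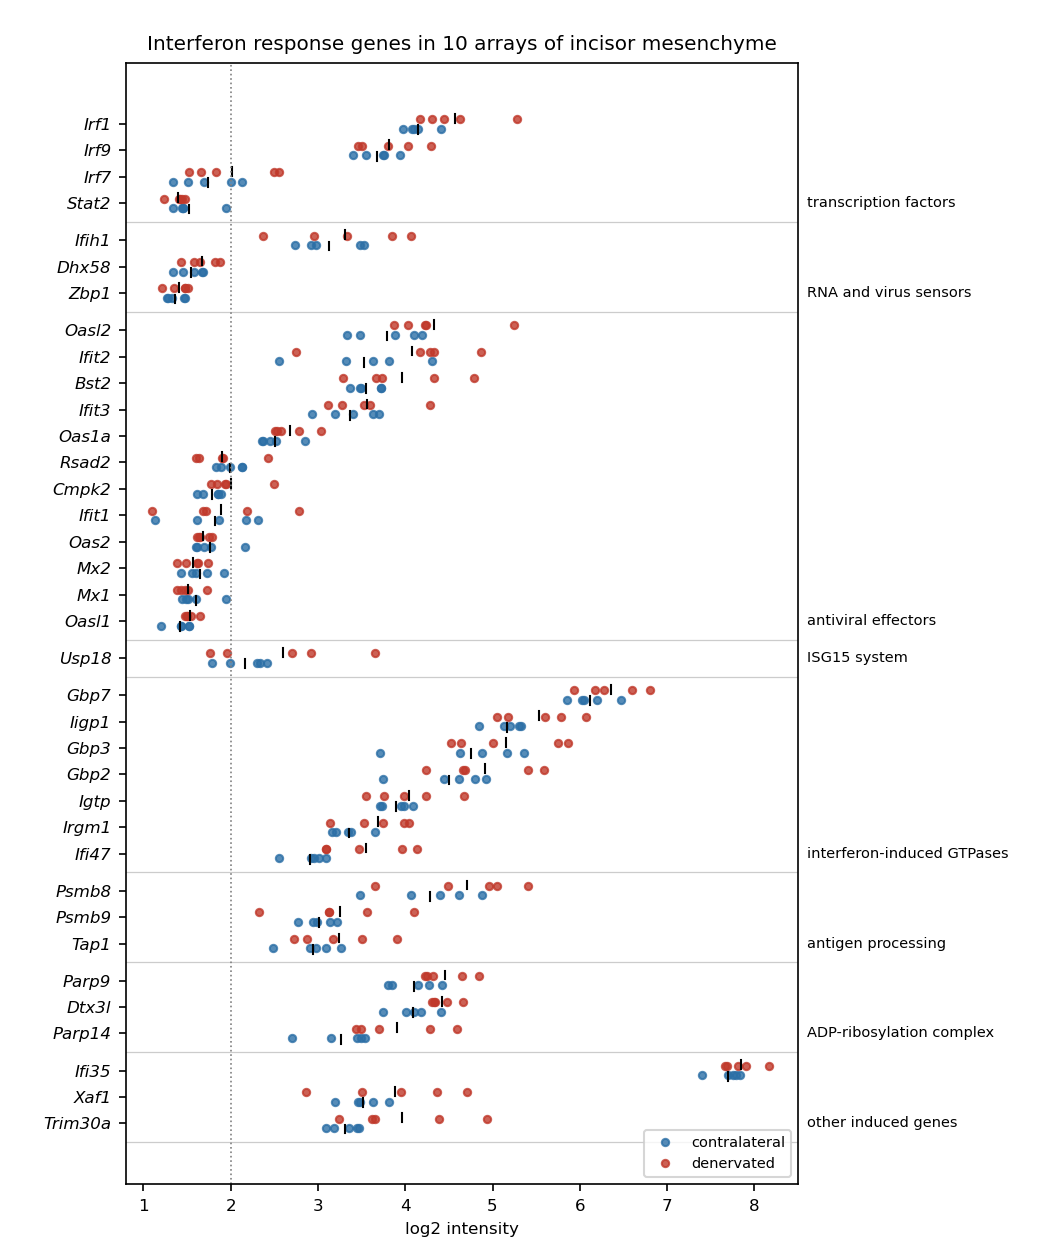
Log2 intensity (x axis) of the 36 members (rows, grouped by role) in the 5 denervated (red) and 5 contralateral (blue) arrays, with black ticks for group means and a dotted line at 2. The denervated tick stands right of the contralateral one for all 25 genes with a mean of at least 2, and the points of the groups overlap for every gene but Ifi47.

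Of the ISG15 system, in which a ubiquitin-like protein is attached to others, only Usp18 was measured; it encodes the protease that removes ISG15 and damps receptor signalling. The Usp18 means were 2.60 ± 0.76 on the denervated side and 2.17 ± 0.27 on the other (SD, n = 5). The denervated value was higher by 0.40, 0.58 and 1.24 in mice 1 to 3 and lower by 0.03 in mice 4 and 5.

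The interferon-induced GTPases, which coat and rupture vacuoles that hold microbes, had a higher denervated mean in 7 of 7 genes, with a median difference of 0.38, and their average was higher within each mouse, by 0.14, 0.34, 0.77, 0.15 and 0.44. Ifi47 read 3.09, 3.97, 4.14, 3.47 and 3.10 in the denervated incisors of mice 1 to 5 and 3.02, 3.09, 2.55, 2.92 and 2.95 in the contralateral ones. It was the 1 member of 36 whose groups did not overlap, by 3.091 against 3.088, or 2.78% against 0.528% of all genes and 0.724% of those with a mean of at least 2. Its difference of 0.65 (0.19 to 1.10; limma's adjusted p 0.790) was 0.31 without denervated arrays 2 and 3 and 0.25 without mice 2 and 3. Gbp7, a guanylate-binding protein gene, read 6.18, 6.81, 6.60, 5.93 and 6.27 against 6.05, 6.48, 6.20, 6.02 and 5.85. Mouse 2 is the highest on both sides, and mouse 4 has a slightly lower denervated value. The difference was 0.24 ± 0.17 (SE 0.09 with the mouse as a block) and 0.55 at the other Gbp7 probe set. It was 0.0091 without denervated arrays 2 and 3 and 0.16 without mice 2 and 3. Gbp3 read 5.01, 5.87, 5.75, 4.52 and 4.64 against 4.88, 5.16, 5.36, 4.63 and 3.71. Contralateral array 5 lies far below the rest, and the difference of 0.41 ± 0.34 (SE 0.15 with the mouse as a block) was 0.15 without that array. It was 0.32 without mice 2 and 3 and -0.025 where denervated arrays 2 and 3 alone were dropped, whose contralateral partners are the highest of their group. Iigp1, an immunity-related GTPase gene, read 5.05, 5.18, 6.07, 5.60 and 5.79 against 4.84, 5.20, 5.33, 5.13 and 5.30. Here the high denervated values are those of mice 3, 4 and 5, and mouse 2 shows no difference, as for Igtp, while in Irgm1 the denervated value of mouse 2 is the lower one. Its difference of 0.38 ± 0.18 was 0.32 without denervated arrays 2 and 3, 0.39 without mice 2 and 3 and 0.24 without denervated array 3 alone; the other Iigp1 probe set gave 0.41. Gbp2, read from a probe set that by its name may also detect related sequences, had 4.91 ± 0.56 against 4.51 ± 0.46 (SD, n = 5) and a difference of 0.59 at its other probe set, while Irgm1 and Igtp differed by 0.34 ± 0.17 and 0.15 ± 0.18 (SE).

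Genes of antigen processing, which cut and move peptides for presentation on MHC class I, lie together on chromosome 17. Psmb8, an immunoproteasome subunit gene, read 4.95, 5.05, 5.41, 4.49 and 3.65 in the denervated incisors of mice 1 to 5 and 4.88, 4.07, 4.40, 4.61 and 3.48 in the contralateral ones. Mouse 5 is low on both sides, and the denervated value is higher by about 1 log2 unit in mice 2 and 3 only. The difference was 0.42 ± 0.33 (SE 0.18 with the mouse as a block), 0.07 without denervated arrays 2 and 3 and 0.04 without mice 2 and 3. The other Psmb8 probe set, at a mean of 1.34, differed by -0.00, and the average of both by 0.21. Psmb9, another immunoproteasome subunit gene, and Tap1, which encodes a subunit of the peptide transporter, had differences of 0.24 ± 0.26 and 0.29 ± 0.22, each largest in mouse 3.

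Parp9, Parp14 and Dtx3l, neighbours on chromosome 16 whose products attach ADP-ribose or ubiquitin to proteins, had 3 of the 6 smallest p values among the members. Dtx3l, the ubiquitin ligase gene, read 4.34, 4.33, 4.67, 4.47 and 4.30 in the denervated incisors of mice 1 to 5 and 4.41, 4.18, 3.74, 4.01 and 4.09 in the contralateral ones. The contralateral value of mouse 1 lies within the denervated range, and that of mouse 3 is the lowest. The difference was 0.34 (0.07 to 0.60; limma's adjusted p 0.790), 0.29 without denervated arrays 2 and 3 and 0.20 without mice 2 and 3; the other Dtx3l probe set gave 0.22. Parp14 read 3.70, 4.60, 4.28, 3.43 and 3.49 against 3.49, 3.54, 3.14, 3.44 and 2.70. Mice 2 and 3 have the high denervated values and contralateral array 5 is low, and mouse 4 shows no difference. The difference of 0.64 (0.10 to 1.17) was 0.28 without denervated arrays 2 and 3 and 0.33 without mice 2 and 3. The other Parp14 probe set, at a mean of 0.92, differed by -0.07, and the average of both by 0.28. Parp9 read 4.31, 4.65, 4.85, 4.25 and 4.22 against 4.43, 4.15, 3.80, 4.27 and 3.85, with the denervated side higher in mice 2, 3 and 5 only. Its difference of 0.36 (0.02 to 0.70) was 0.16 without denervated arrays 2 and 3 and 0.08 without mice 2 and 3.

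The 3 measured genes left were higher on average too. Ifi35, which encodes a leucine zipper protein, read 7.81, 7.91, 8.17, 7.69 and 7.66 in the denervated incisors of mice 1 to 5 and 7.84, 7.75, 7.79, 7.70 and 7.40 in the contralateral ones. The differences within mice are small, from -0.03 to 0.38, and the probe set may by its name detect several transcripts. The difference was 0.15 ± 0.11, 0.03 without denervated arrays 2 and 3 and 0.08 without mice 2 and 3, and the other 2 Ifi35 probe sets gave 0.15 and 0.20. Trim30a read 3.61, 4.39, 4.93, 3.65 and 3.24 against 3.44, 3.47, 3.35, 3.18 and 3.09. The contralateral values are close together and the denervated ones spread, with mice 2 and 3 highest, and denervated array 5 lies within the contralateral range. Its difference of 0.66 (0.06 to 1.26) was 0.42 without denervated array 3, 0.19 without denervated arrays 2 and 3 and 0.26 without mice 2 and 3. The other Trim30a probe set, at a mean of 1.89, differed by 0.10, and the average of both by 0.38. Xaf1, a pro-apoptotic gene, had 3.88 ± 0.73 against 3.52 ± 0.23 (SD, n = 5), with the denervated value higher by 1.25 in mouse 3 and lower by 0.33 in mouse 4.

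Most genes that start the response had low values or small differences, with the receptor gene Ifngr1 as an exception in size. None of the other pathway lists had a member past the threshold in either direction, but neither did any of the 18193 genes. For the list counts that follow, 55.8% of all genes had a difference above 0. Of 9 measured interferon genes 8 had a mean below 2, among them Ifnb1 at 1.11 and Ifng at 0.47, and the list had 4 of 9 differences above 0 with a median of -0.00; the smallest p values belonged to Ifna5 at 0.10 ± 0.07, Ifnz at 0.09 ± 0.10 and Ifnab at -0.10 ± 0.12. Receptors and kinases had 7 of 9 above 0 and a median of 0.06. The type I receptor genes Ifnar1 and Ifnar2 had means of 5.05 and 6.30 and differed by 0.04 ± 0.16 and 0.06 ± 0.10. Ifngr1, which encodes the ligand-binding chain of the gamma receptor, read 6.22, 6.90, 6.59, 5.99 and 6.28 in the denervated incisors of mice 1 to 5 and 6.23, 5.81, 5.70, 5.96 and 6.01 in the contralateral ones. The denervated values of mice 2 and 3 are the highest. Denervated array 5 lies just above the contralateral range, and denervated arrays 1 and 4 lie within it. Its difference was 0.45 ± 0.16 (limma's adjusted p 0.790), 0.22 without denervated arrays 2 and 3 and 0.10 without mice 2 and 3, while Ifngr2, the other chain, differed by 0.03 ± 0.16, the kinase gene Tyk2 by 0.15 ± 0.11 and Il10rb by 0.10 ± 0.08.

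Of 16 measured genes of interferon induction 10 had a difference above 0, with a median of 0.03. Tlr7, the endosomal RNA receptor gene of myeloid cells, differed by 0.26 ± 0.09 at a mean of 1.69 and was higher in 5 of 5 mice. The RNA sensor gene Ddx58 differed by 0.26 ± 0.13 and Irf5 by -0.16 ± 0.08. Inhibitors had 8 of 12 above 0 and a median of 0.04, with the nucleotide hydrolase gene Samhd1 at 0.48 ± 0.22, the cytokine signalling suppressor gene Socs3 at 0.54 ± 0.33 and the phosphatase gene Ptpn6 at 0.17 ± 0.13.

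Other interferon-induced genes, 48 of 58 listed, had 36 differences above 0 (75.0%, against 55.8% of all genes) and 12 below, with a median of 0.13. Of the 48, 5 were higher in every mouse, against 6.58% of all genes and 9.17% of those with a mean of at least 2. The list average differed within mice 1 to 5 by -0.01, 0.25, 0.43, 0.05 and 0.13, again largest in mice 2 and 3. In the setting without denervated arrays 2 and 3 25 of 48 (52.1%) were above 0, against 49.1% of all genes. In that without mice 2 and 3 it was 29 of 48 (60.4%), against 48.0% of all genes. Parp12, a relative of Parp14, differed by 0.41 ± 0.15 and was higher in 5 of 5 mice, as was the membrane protein gene Ms4a6b at 0.56 ± 0.24; Ifi204, a DNA-binding protein gene, differed by 0.30 ± 0.14 at a mean of 1.29. The chemokine genes Cxcl9, Cxcl10 and Cxcl11, which draw T cells and are strongly induced by interferon gamma, had means of 0.75, 1.14 and 1.03 and differences between -0.10 and 0.07. These means lie below the bound of 2, under which signal and background may not be told apart. MHC class I and peptide loading genes had 11 of 14 above 0 and a median of 0.11. B2m and H2-K1, the light and a heavy chain gene of MHC class I, differed by 0.06 ± 0.19 and 0.13 ± 0.24, the peptide-trimming enzyme gene Erap1 by 0.31 ± 0.12, the immunoproteasome gene Psmb10 by 0.34 ± 0.18 and the proteasome activator gene Psme1 by 0.22 ± 0.14.

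Markers of several cell types moved with the interferon response genes. The macrophage markers had 16 of 17 differences above 0, and 12 were higher in every mouse, against 55.8% and 6.58% of all genes. Their average stood at -0.04, 0.73, 0.56, 0.12 and -0.16 in denervated arrays 1 to 5 and at -0.32, 0.00, -0.37, 0.00 and -0.53 in contralateral arrays 1 to 5. It was thus higher within each mouse, by 0.28, 0.73, 0.93, 0.12 and 0.36, with the largest values in mice 2 and 3 and the smallest in mouse 4. The mean difference of 0.48 was 0.21 without denervated arrays 2 and 3 and 0.25 without mice 2 and 3. In both settings 13 of 17 were above 0, against 49.1% and 48.0% of all genes. The neutrophil markers differed by 0.82 and 1.93 in mice 2 and 3 and by -0.73, -0.18 and -0.19 in mice 1, 4 and 5; 5 of 8 had a mean below 2. Endothelial markers differed by 0.62 and 0.64 in mice 2 and 3 and by -0.14 to -0.06 in the others, and pericyte and smooth muscle markers by 1.04 and 0.75 and by -0.11 to 0.15. In the setting without mice 2 and 3 1 of 8 neutrophil, 3 of 12 endothelial and 6 of 10 pericyte and smooth muscle markers were above 0, against 48.0% of all genes. The part of these cell types in the differences of the interferon response genes was not tested. Lymphoid markers had low values: of 14 T and NK cell markers 13 had a mean below 2, among them Cd3e at 1.48, and 12 of 14 differences were below 0. All 5 B cell markers were below 2. Plasmacytoid dendritic cells make type I interferon. Of their 8 markers 4 had a mean of at least 2, with Tcf4 highest at 8.56, while Siglech was at 1.40. In bulk RNA the high Tcf4 value alone does not show that these cells are present. For 4 of 8 the difference was above 0. The largest, 0.41, was that of Bst2, which is also counted among the interferon response genes. Among dendritic cell markers the MHC class II genes, which macrophages share, were high, while Flt3 and Xcr1 had means of 1.07 and 0.36. The erythroid markers had 2 of 4 differences above 0 and means below 2, odontoblast markers 2 of 7 above 0 and dental mesenchyme markers 11 of 12.

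**Figure D5:**
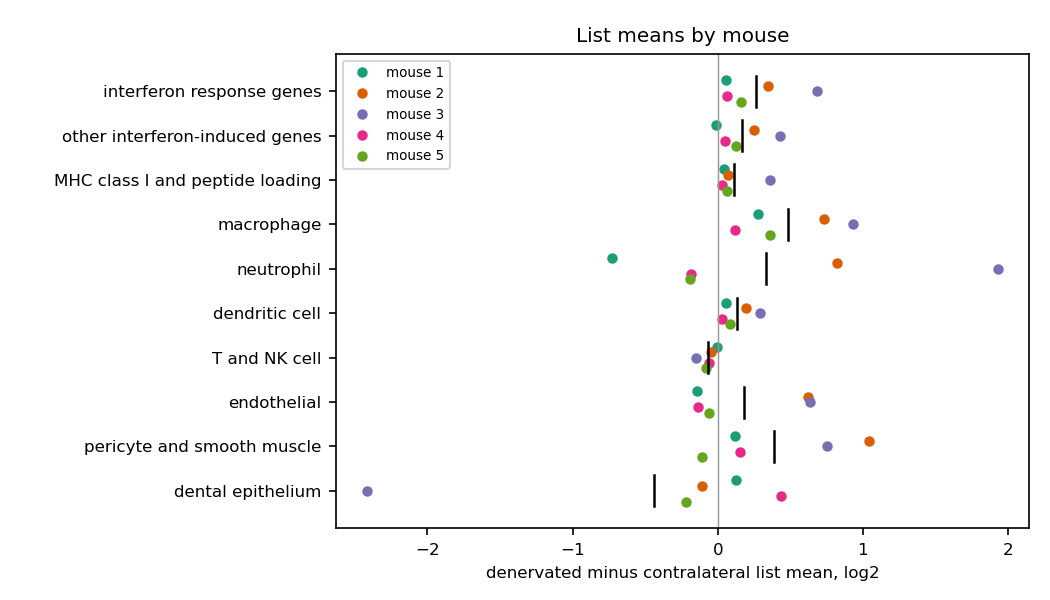
Denervated minus contralateral difference of the list mean (gene-centred log2 values, x axis) for the interferon response genes, 2 related lists and 7 marker lists (rows); points are the 5 mice and black bars their mean. Mice 2 and 3 have the highest values in the interferon, macrophage, neutrophil, endothelial and smooth muscle rows, and mouse 3 is at -2.41 for dental epithelium.

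The genes outside the set whose values were most like the average of the 36 members, by Pearson's r over the 10 arrays, among genes with a mean of at least 4, were Hey1, Bicc1, Fcgrt, Fbln1, Coro1a, Limd2, Csad, Csf1r, Fn1 and Slc50a1, with r from 0.95 to 0.98. The arrays come from 5 mice and share the high denervated arrays 2 and 3, so these values are a description only. The 10 include the macrophage growth factor receptor gene Csf1r, the leukocyte actin-binding gene Coro1a and the immunoglobulin receptor gene Fcgrt, as well as the matrix genes Fbln1 and Fn1. The 36 members are read by 56 probe sets; 15 members have several, whose differences shared a sign for 9 of them.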

How the data were processed

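Biotin-labelled RNA of 10 samples was hybridised to Affymetrix expression arrays, per the labels' protocols. The authors deposited 1 log2 intensity for each probe set and array, summarised with RMA, a tool that the submitters' processing notes name without a version. That the scale is log2 was read from the range of values. The variant of RMA is not given in the sources used here and can change differences between low values. The values were used as deposited. Of 45101 probe sets 64 controls were left out; 34945 name 1 gene symbol in the supplied platform annotation, 932 several and 9160 none. By Entrez identifier 34741 matched the RefSeq table, with 0 symbols changed. Denervated and contralateral arrays were compared with limma 3.58.1 (lmFit, eBayes) in R 4.3.3 over 18193 genes with Benjamini-Hochberg adjustment, without the mouse as a term, and the fit was tested on simulated data. Errors of differences are standard errors and intervals are 95% confidence intervals.

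Equal sample numbers were taken as the incisors of a mouse: the design names both incisors of 5 mice, and for 5 equal-numbered pairs the departures from the group means had correlations across genes of 0.18 to 0.57, against -0.41 to 0.22 for the 20 unequal ones; the best match was the equal number for 4 of 5 denervated arrays but not for array 3 (0.18, against 0.22 with contralateral array 1). Alternatives were the replicate block, averaging the probe sets of each gene, level filters, renormalization, a trended variance and leaving out arrays. Members, lists and tests were chosen with earlier results of these data known. Values of every array are given for the 3 members with the highest mean, the 6 with the smallest p, up to 6 more with a common sign in all mice and the 3 with the widest range. From each pathway list the 3 genes with the smallest p are named, with fixed receptor, ligand and MHC genes; markers named singly, the CXCL chemokines and the other members were picked once their values were known.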

Additional observations from a re-analysis of the deposited data

Results flagged for a closer look

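Among 74 groups of 5 arrays, 1 for each member and side and 2 for the average of the members, 4 held a value far from the other 4, where chance flags about 1 group in 20. Denervated array 3 was the highest for Oasl2, at 5.24, and for Cmpk2, a mitochondrial nucleotide kinase gene, at 2.50. Stat2 had a low value of 1.23 in denervated array 2 and a high value of 1.95 in contralateral array 3, both near the low end of the scale.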

How the results depend on the processing

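With the replicate block, as in the fit without it, 0 members and 0 genes passed the adjusted threshold, and the pairing changed no call; the same holds for every other alternative run, with a smallest adjusted p of 0.399 for a member, under the block. Of 276 values of the 15 members with values for every array, 274 kept their direction without a call. Many of these could not turn, because the block, the trended variance and the level filters leave a difference unchanged. The same holds for averaging where a member has a single probe set. The 2 that turned did so without denervated arrays 2 and 3, Irf7 at -0.063 and Gbp3 at -0.025, a setting that breaks pairs; without mice 2 and 3 they were 0.16 and 0.32. For 11 of the 15, the difference moved by over 1.5 times when 1 array was dropped. The number of members with a higher denervated mean was between 28 and 32 with 1 array left out. Only 10 members have a mean of at least 4, so the count cannot exceed 10 under that filter. All 10 were higher, against 63.9% of all genes at this level. The mean difference over members, 0.26, ranged from 0.14 (without denervated array 3) to 0.34 with 1 array left out. Without Bst2 and Irf7 29 of 34 members were higher. Signal over background limits the 11 members below 2.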

Other observations

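Some interferon-induced transcripts differed far more between mice than between the sides of a mouse. A second Xaf1 probe set, not used above, read 6.62 and 6.28 in the denervated and contralateral incisors of mouse 4 and between 0.86 and 1.44 in the 8 other arrays, while the Xaf1 probe set used above was not high in that mouse, at 2.86 and 3.19. Ifi44l was low in mouse 4, at 1.97 and 2.18, with a range of 3.96 to 6.36 elsewhere. Trim34a, a tripartite motif gene, read 5.35 and 4.79 in mouse 2, 5.08 and 4.70 in mouse 5, 3.41 and 3.36 in mouse 4, and between 1.41 and 1.98 in mice 1 and 3. Over 45037 probe sets, 8 had both incisors of 1 mouse at least 3 log2 units above or below all other arrays. They include a probe set of Pdxdc1 that was high in mouse 5, at 7.12 and 7.95, another that was low there, at 2.44 and 2.39, and a probe set of Rps9 that was high in mouse 4, at 11.38 and 11.58. These genes were chosen after their values were seen, and no cause was tested.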
